A study of Mus musculus with 8 samples.

Results

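The glucocorticoid and CRH genes described here are 8 genes of the stress hormone axis. They were picked by name, with earlier results of these data known. They are the receptors Nr3c1 (glucocorticoid receptor) and Nr3c2 (mineralocorticoid receptor), the receptor targets Fkbp5, Sgk1 and Tsc22d3, the steroid-activating enzyme Hsd11b1, the peptide Crh and its receptor Crhr1. They were found through the accessions in the array files, which gave 10 probes for the 8 genes out of 39429 probes and 19751 named genes on the array. Nr3c1 and Crhr1 each had 2 probes and the other 6 genes had 1. All 10 probes were well above background on all 8 arrays.

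Whole hippocampus, dissected by hand from C57BL/6J mice, was compared between 3 months (3M) and 29 months of age (29M), with 4 samples per group, each on 1 Cy3-labelled 1-colour array. Mice of both groups were wild type, untreated and aged in the home cage, and sex is not given in the sources used here. Per the study's methods, mice of the older age were bought as aged animals and then kept for some months before use. The labels do not say whether each sample was 1 mouse, so the p-values below measure the spread between these samples.

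In background terms, corticosterone, the main glucocorticoid of the mouse, enters brain cells and binds the mineralocorticoid and glucocorticoid receptors, which then act as transcription factors at short palindromic DNA elements. Both receptors are known for high levels in hippocampal neurons, and the hippocampus is part of the feedback that restrains the axis. Upstream, CRH from the hypothalamus drives the release of the pituitary hormone that makes the adrenal gland secrete the steroid, and CRH made by hippocampal interneurons also acts locally on CRHR1.

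The 8 arrays were spread unevenly over 3 slides, with samples of both ages on each slide. Slide 1 held replicate 1 of 3M with replicates 3 and 4 of 29M, and slide 2 held replicate 2 of each age. Slide 3 held replicates 3 and 4 of 3M with replicate 1 of 29M. Every difference within a slide given below thus rests on 1 array of at least 1 age, and on slide 2 on 1 array of each. The share of spots well above background ranged from 76.2% in replicate 1 of 3M to 85.0% in replicate 4 of 3M, normalized levels correlated between any 2 arrays with r from 0.991 to 0.998 across probes, and no spot was saturated. Markers of the dentate gyrus (Prox1), of the CA1 field (Wfs1) and all 8 neuronal markers checked were well above background on all 8 arrays, as were all 8 markers of the choroid plexus and all 8 of the meninges. Leaving out replicate 1 of 3M raised the number of probes called on the whole array from 810 to 1465, and the main values that this library decides are given without it as well.

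The DNA element that the glucocorticoid receptor recognises is shown first because 1 target carries a perfect copy of it near a transcript start. RefSeq windows from 250 bases before to 50 bases after a transcript start (build GRCm38.p6) were on hand for 6 of the 8 genes, 13 windows in all, of which 6 belonged to Sgk1 and 3 to Tsc22d3. Nr3c1 and Crh had no entry. Elements outside these windows were not searched for, so a gene without a match here may still carry one. The full palindrome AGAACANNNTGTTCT reads the same on both strands, and it was present in 3 of 32851 windows (0.00913%). Among the windows of the 8 genes it was found in 1, that of an Sgk1 transcript at chr10:21993640-21993939 on the plus strand, where the match begins 189 bases before the start. Capitals mark the match.
Sgk1 window: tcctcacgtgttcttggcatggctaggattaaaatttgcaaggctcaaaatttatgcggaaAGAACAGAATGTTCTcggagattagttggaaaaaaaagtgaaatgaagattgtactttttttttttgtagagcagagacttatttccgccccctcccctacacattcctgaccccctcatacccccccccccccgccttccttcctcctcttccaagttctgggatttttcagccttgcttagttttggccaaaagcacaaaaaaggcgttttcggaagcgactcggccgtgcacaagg

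A looser form of the element, GNACANNNTGTNC, which lies inside the full palindrome, was present in 156 of 32851 windows (0.475%). Among the 8 genes it was again only in that Sgk1 window. Of 29 further glucocorticoid-induced genes listed below, 23 had windows, 29 in all, and 2 of these held the looser form: Map3k6 and Mt1, in windows on the plus strand. The 3 matches are set side by side with 15 flanking bases, at chr10:21993687-21993729, chr4:133240622-133240664 and chr8:94178980-94179022, with the match in capitals.
Sgk1: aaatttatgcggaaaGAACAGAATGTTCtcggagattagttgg
Map3k6: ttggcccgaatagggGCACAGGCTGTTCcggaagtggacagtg
Mt1: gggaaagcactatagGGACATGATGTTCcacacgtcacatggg

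A single arm of the palindrome, AGAACA on either strand, is common and was present in 6233 of 32851 windows (19%). It was found in 4 of the 13 windows of the 8 genes, 3 of Sgk1 and 1 of Tsc22d3. The Tsc22d3 match is shown with its flanks (chrX:140600687-140600722, minus strand), since this gene had the smallest p of the 8. A match is a description of letters and not a measured binding site.
Tsc22d3: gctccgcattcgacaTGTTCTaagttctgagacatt

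The age comparison asked whether the transcripts of the axis differed between 3M and 29M. Levels are normalized log2 units, in which a difference of 1 is a doubling, and a probe was called at a Benjamini-Hochberg adjusted p under 0.1 over all probes in limma together with an absolute log2 difference of at least 0.5. By these criteria none of the 8 genes changed between the ages, on any of the 10 probes, against 2.06% of the 39408 probes tested (1.25% higher, 0.809% lower) and 2.73% of the 19742 genes tested with any probe called. In limma 1 of the 10 probes, Tsc22d3, had an unadjusted p under 0.05, where 16.9% of all probes did. The count of 0 called probes was the same under all 19 alternative settings. In value 5 probes were higher and 5 lower in 29M. For 7 of the 10 probes the 95% interval of the difference lay within 0.5 log2 units of 0 on both sides, as it did for 68.4% of all probes. In whole tissue, fewer cells of a type and less RNA per cell cannot be told apart.

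**Figure D1:**
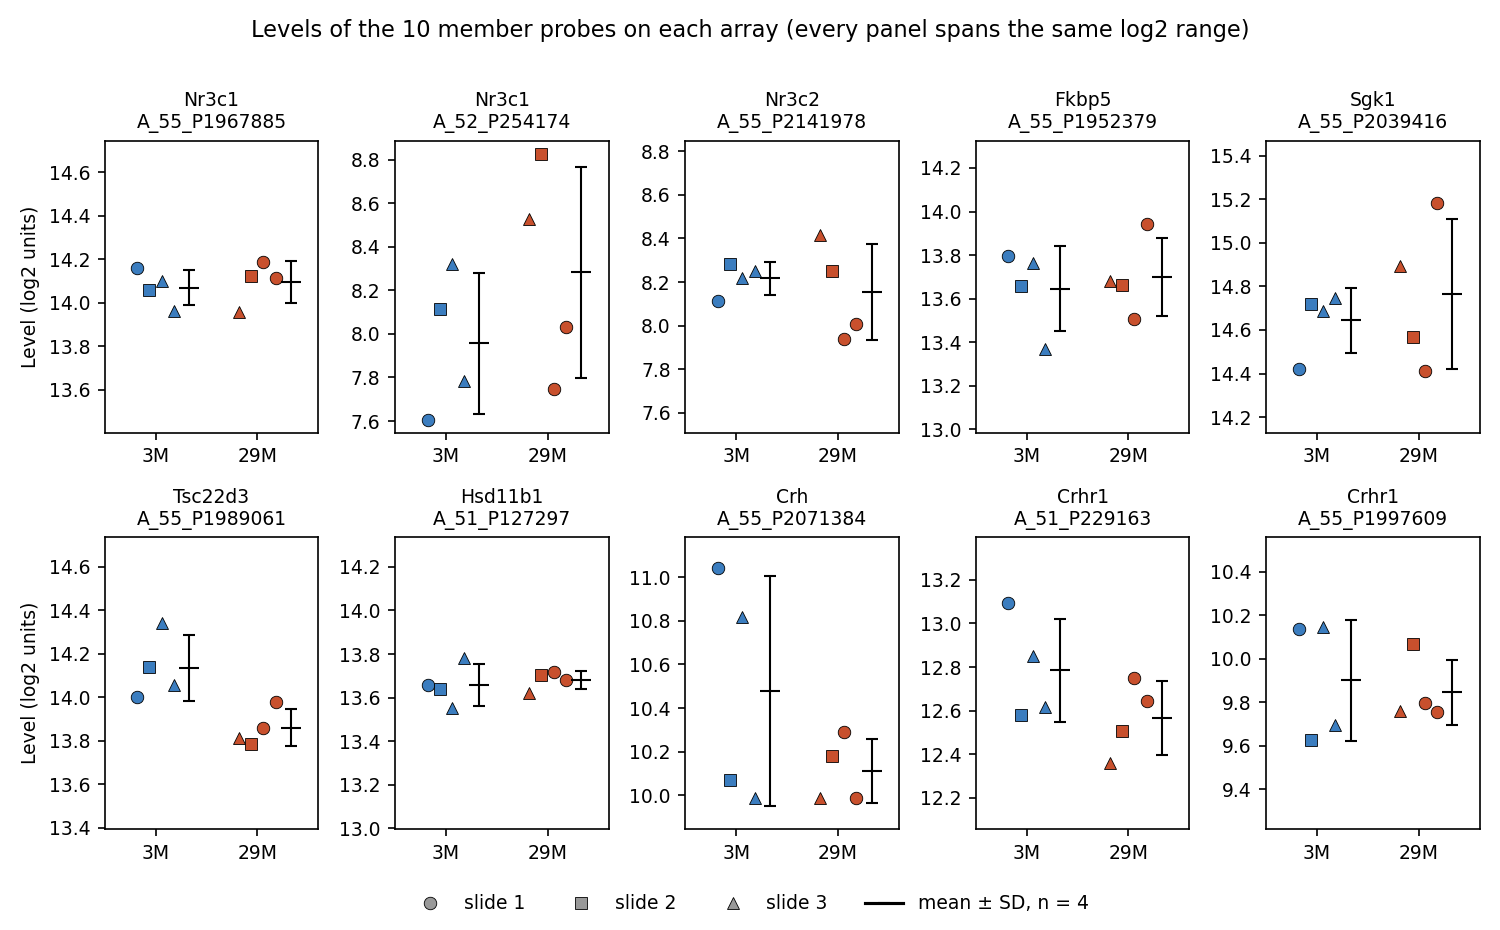
Normalized level (log2 units, vertical axis) of each of the 10 probes in 3M (blue) and 29M (orange), with 1 point per array, replicates 1 to 4 from left to right, the marker shape giving the slide and the bars giving the mean ± SD of 4 arrays. Each panel spans the same log2 range, and in the Tsc22d3 panel alone the 2 groups do not overlap.

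The glucocorticoid receptor Nr3c1, which binds the steroid at the higher concentrations reached in stress, was close to level between the ages on its brighter probe. Probe A_55_P1967885 read 14.16, 14.06, 14.10 and 13.96 in 3M replicates 1 to 4 and 13.96, 14.12, 14.19 and 14.11 in 29M replicates 1 to 4. The values of the 2 groups lay within one another. The difference was 0.03 log2 units (SE 0.08, 95% interval -0.16 to 0.21, limma adjusted p = 0.913), so that a change of the size needed for a call lay outside its interval.

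The second Nr3c1 probe, A_52_P254174, was more variable. It read 7.61, 8.11, 8.32 and 7.78 in 3M and 8.53, 8.83, 7.75 and 8.03 in 29M. Replicates 1 and 2 of 29M were the highest of the 8 arrays, while replicate 3 of 29M was below 3 of the 4 young arrays. The difference was 0.33 log2 units (SE 0.24, 95% interval -0.22 to 0.87, limma adjusted p = 0.535), and it was 0.28, 0.71 and 0.47 within slides 1, 2 and 3. The interval of this probe held both 0 and values past 0.5, so it bounds the receptor less tightly than the brighter probe does.

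The mineralocorticoid receptor Nr3c2 binds corticosterone with high affinity and is largely occupied at resting levels. Its probe A_55_P2141978 read 8.11, 8.28, 8.22 and 8.25 in 3M and 8.42, 8.25, 7.94 and 8.01 in 29M. The older group was the more spread, with an SD of 0.22 against 0.07, and it held both the highest and the lowest of the 8 values. The difference was -0.06 log2 units (SE 0.11, 95% interval -0.32 to 0.19, limma adjusted p = 0.829). This probe was dim, with a 3M mean of 8.22 against 14.07 for the brighter Nr3c1 probe. The normalization can understate the change of dim probes. On processed scanner signals minus the 75th percentile the Nr3c2 difference was -0.18, and it was -0.15 when processed signals entered the variance stabilising model. The interval thus bounds this receptor less firmly than its width shows.

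Of the 3 receptor targets, only Tsc22d3 had groups that did not overlap. Tsc22d3 encodes GILZ, a leucine zipper protein that mediates part of the anti-inflammatory action of glucocorticoids. Its probe A_55_P1989061 read 14.00, 14.14, 14.34 and 14.06 in 3M and 13.81, 13.79, 13.86 and 13.98 in 29M. The lowest young value stood only just above the highest old value, and across the array 11.1% of probes had groups that did not overlap. The difference was -0.27 log2 units, or 0.827-fold (SE 0.10, 95% interval -0.49 to -0.06, limma adjusted p = 0.194), which passed neither threshold. Within slides 1, 2 and 3 it was -0.08, -0.35 and -0.39, and the adjusted p ranged from 0.055 to 0.368 over the 19 alternative settings, with the same sign in all of them.

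Of 10 genes induced by neuronal activity (Fos, Fosb, Junb, Arc, Egr1, Egr2, Nr4a1, Npas4, Ier2 and Btg2) all 10 were lower in value, 5 with an unadjusted p under 0.05 in limma and none called, with a median difference of -0.40 log2 units. Of all 19742 genes tested, 9305 were lower in value and 1510 of these had an unadjusted p under 0.05, with a median of 0.01 over all genes. The mean level of the 10 activity genes ranged from 10.84 to 11.99 in 3M and from 10.68 to 11.17 in 29M, so that the groups overlapped. Replicate 3 of 3M was the highest of the 8 arrays both in this mean and in Tsc22d3, and replicate 1 of 3M the lowest young array in both. Among the old arrays, replicate 4 had the lowest mean (10.68) and the highest Tsc22d3 value (13.98). Replicate 2 of 29M had the highest old mean (11.17) and the lowest old Tsc22d3 value (13.79). These arrays were picked out after the values were seen. The part of neuronal activity in the Tsc22d3 difference was not tested.

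Fkbp5 encodes a co-chaperone that is induced by the glucocorticoid receptor and lowers its affinity for hormone, in a short negative feedback loop. Its probe A_55_P1952379 read 13.80, 13.66, 13.76 and 13.37 in 3M and 13.68, 13.66, 13.51 and 13.94 in 29M. The young group held the lowest value and the old group the highest. The difference was 0.05 log2 units (SE 0.13, 95% interval -0.23 to 0.33, limma adjusted p = 0.877).

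Sgk1, a kinase that regulates ion channels and transporters, is induced through both receptors. Its probe A_55_P2039416 read 14.42, 14.72, 14.69 and 14.75 in 3M and 14.89, 14.57, 14.41 and 15.18 in 29M. Replicates 1 and 4 of 29M were above all young arrays, and replicate 3 of 29M was the lowest of the 8. The difference was 0.12 log2 units (SE 0.16, 95% interval -0.25 to 0.49, limma adjusted p = 0.76). It was 0.38, -0.15 and 0.18 within slides 1, 2 and 3, and without replicate 4 of 29M it was -0.02.

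Hsd11b1 encodes the enzyme that regenerates active corticosterone from its inert 11-keto form inside cells. Its probe A_51_P127297 was printed 10 times on each array. The SD between these repeated spots was 0.128 to 0.235 log2 units within an array. The mean over the spots was 13.66, 13.64, 13.55 and 13.78 in 3M and 13.62, 13.71, 13.72 and 13.68 in 29M. The young values enclosed all the old ones. The difference was 0.02 log2 units (SE 0.08, 95% interval -0.15 to 0.20, limma adjusted p = 0.915), an interval that runs from 0.899-fold to 1.15-fold.

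Crh and both Crhr1 probes were lower in value in 29M, and none passed the test. Crh, the peptide that starts the axis and that hippocampal interneurons also make, was read by probe A_55_P2071384 at 11.04, 10.07, 10.82 and 9.99 in 3M and at 9.99, 10.18, 10.29 and 9.99 in 29M. Replicates 1 and 3 of 3M stood above the other 6 arrays, and replicates 2 and 4 of 3M lay among the old values. The difference was -0.37 log2 units (SE 0.23, 95% interval -0.88 to 0.15, limma adjusted p = 0.456), with an SD of 0.53 in 3M and 0.15 in 29M, and without replicate 1 of 3M it was -0.18. Within slides 1, 2 and 3 it was -0.90, 0.11 and -0.42, so slide 2 went the other way.

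Crhr1, the main CRH receptor of the forebrain, had its brighter probe A_51_P229163 at 13.09, 12.58, 12.85 and 12.62 in 3M and at 12.36, 12.51, 12.75 and 12.65 in 29M. The difference was -0.22 log2 units (SE 0.13, 95% interval -0.52 to 0.08, limma adjusted p = 0.449), and it was lower within all 3 slides by value (-0.39, -0.07 and -0.38). Without replicate 1 of 3M it was -0.11. The other probe, A_55_P1997609, read 10.13, 9.63, 10.15 and 9.70 in 3M and 9.76, 10.07, 9.80 and 9.76 in 29M. Replicate 2 of 29M stood apart there, at the level of the 2 highest young arrays. Its difference was -0.06 log2 units (SE 0.14, 95% interval -0.38 to 0.26, limma adjusted p = 0.884), and it turned from -0.36 within slide 1 to 0.44 within slide 2. Replicates 1 and 3 of 3M were thus the 2 highest of the 8 arrays in Crh and in both Crhr1 probes, a pattern picked out after the values were seen. Those 2 arrays lay on different slides.

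**Figure D2:**
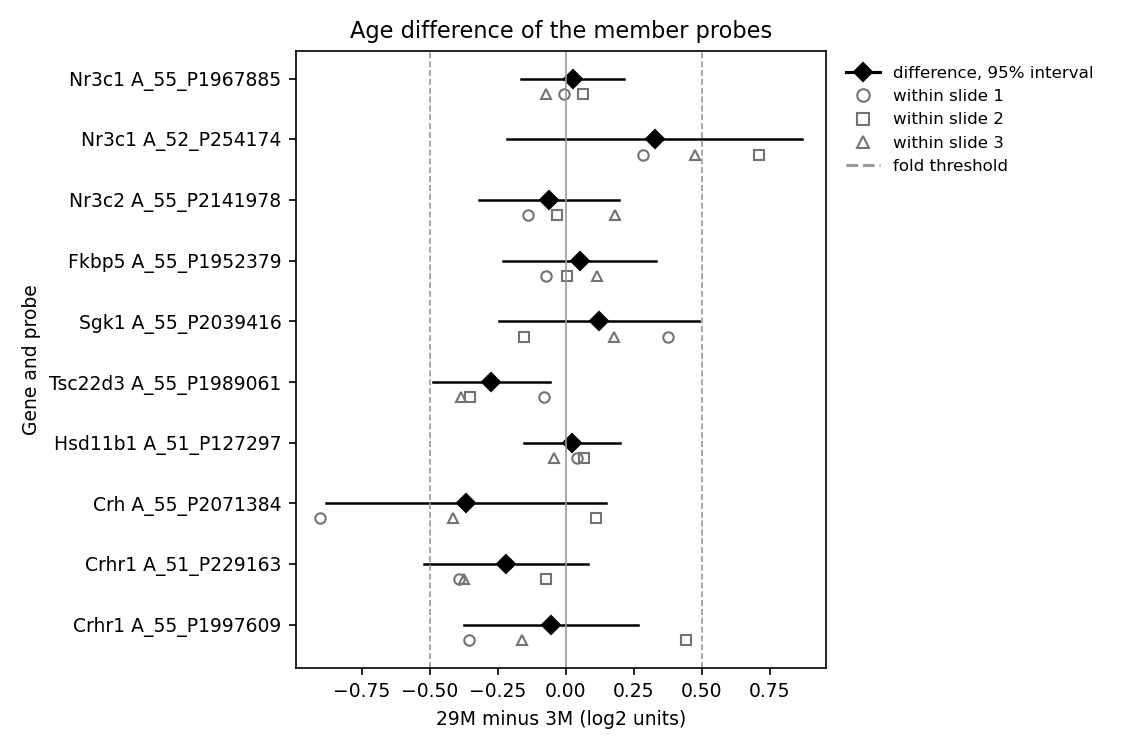
Difference between 29M and 3M in log2 units (horizontal axis) for each of the 10 probes (vertical axis), with its 95% interval from limma, and below it in open grey markers the difference within each of the 3 slides. Dashed lines mark the fold threshold of 0.5 log2 units, and the interval of Tsc22d3 (-0.49 to -0.06) is the only one that leaves out 0.

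Fkbp5, Sgk1 and Tsc22d3 answer to the same receptor, so a further question was whether samples of 1 age that were high in one were high in the others. Each gene's deviations from the mean of its own age group were correlated over the 8 arrays, in 3 pairs. Pearson's r was 0.39 for Fkbp5 and Sgk1, 0.43 for Fkbp5 and Tsc22d3 and 0.46 for Sgk1 and Tsc22d3, with two-sided p = 0.385, 0.337 and 0.193 in an exact permutation test within groups (576 arrangements, Benjamini-Hochberg adjusted p = 0.385 for each pair). Spearman's rho was 0.24, 0.38 and 0.29, with exact permutation p = 0.668, 0.441 and 0.432 (adjusted p = 0.668, 0.662 and 0.662). The values were above 0 in all 3 pairs and none passed the test.

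Replicate 4 of 29M was 0.24, 0.42 and 0.12 log2 units above its group's mean in Fkbp5, Sgk1 and Tsc22d3, and it was the highest old array in each. Among the young arrays, replicate 1 was the highest in Fkbp5 and the lowest in both other genes, and replicate 4 was the lowest in Fkbp5 and the highest in Sgk1, so that Fkbp5 and Sgk1 ran in opposite directions at both ends of the young group. The 4 arrays of 1 age are too few for a correlation of their own. Without the 2 arrays farthest from the median of the first gene r was 0.40, 0.12 and 0.40. Without replicate 4 of 29M alone r was -0.12, 0.21 and 0.20, so that the first pair turned its sign. With slide means removed as well r was 0.55, 0.52 and 0.43.

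**Figure D3:**
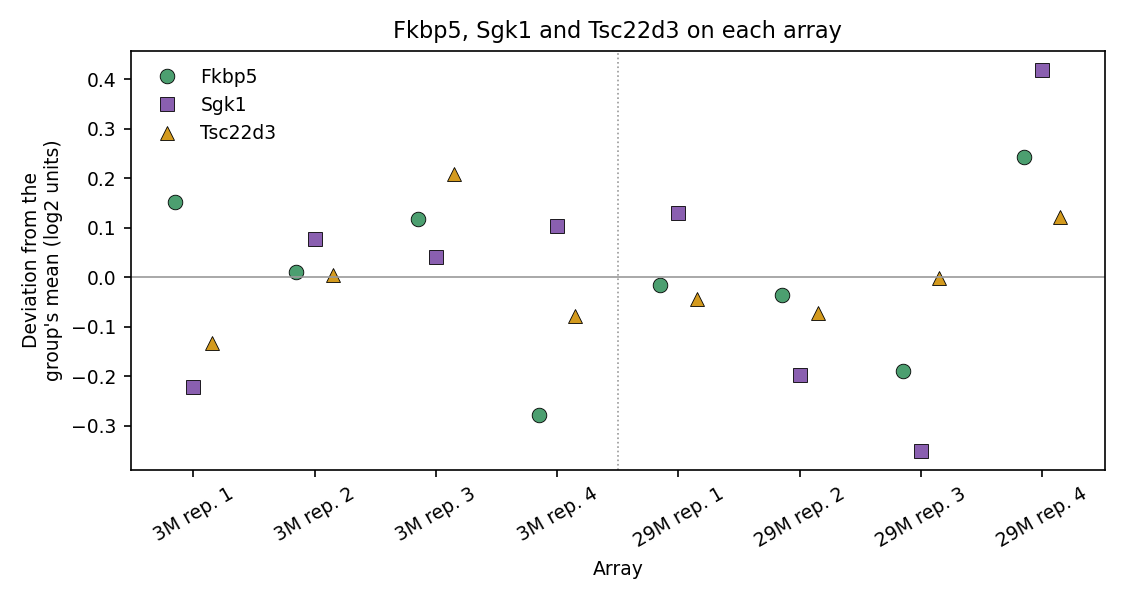
Deviation of Fkbp5 (circles), Sgk1 (squares) and Tsc22d3 (triangles) from the mean of the array's own age group, in log2 units (vertical axis), on each of the 8 arrays (horizontal axis, 3M to the left of the dotted line). In replicate 4 of 29M all 3 genes lie above 0, at 0.24, 0.42 and 0.12.

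The wider pathway was read from 5 lists, with 1 probe per gene, the one with the highest mean. Of 105 listed genes with a probe, 2 were called, both higher in 29M, against 2.26% of the 19742 genes tested on their brightest probe (1.58% higher, 0.689% lower). The median difference over the 105 genes was -0.01 log2 units, beside 0.01 over all genes. At any fold, 8 of the 105 had an adjusted p under 0.1 in limma, where 3.77% of all genes did.

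The list of glucocorticoid-induced genes other than the 3 above held 29 genes, and none was called (13 higher and 16 lower in value, median -0.07). In limma 3 had an unadjusted p under 0.05 and a higher value and 6 a lower value, where 17.1% of all genes had such a p in either direction. Plin4, which coats lipid droplets, was 2.46-fold higher in value (log2 difference 1.30, SE 0.40, adjusted p = 0.155). It read 9.80, 10.01, 10.32 and 9.81 in 3M and 10.91, 10.73, 10.77 and 12.73 in 29M, with replicate 4 of 29M far above the rest, and without that array the difference was 0.82 with an adjusted p of 0.0463, which is a call. Angptl4, an inhibitor of lipoprotein lipase, was 0.553-fold (log2 difference -0.86, SE 0.25, adjusted p = 0.137), and the inflammation regulator Anxa1 was 1.48-fold (0.57, SE 0.17, adjusted p = 0.14). Each of these 3, named for the largest differences of the list, had groups that did not overlap on this probe, as 11.1% of all probes did. On the second Anxa1 probe the groups overlapped, with a difference of 0.48 (adjusted p = 0.219). Angptl4 was called without replicate 3 of 29M (-1.04, adjusted p = 0.0846) and Anxa1 without replicate 1 of 3M (0.65, adjusted p = 0.0833), and array weights called all 3 (adjusted p = 0.0823 for Plin4, 0.0633 for Angptl4 and 0.0418 for Anxa1). A further pair had an adjusted p under 0.1 without reaching the fold threshold, and is named for that after its values were seen: Ddit4, an inhibitor of mTORC1 (-0.46, adjusted p = 0.0433), and the metal-binding Mt2 (-0.43, adjusted p = 0.0935). Map3k6 and Mt1, the genes with the looser element, differed by 0.11 (adjusted p = 0.767) and -0.18 (adjusted p = 0.487).

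Of the receptor partners, the chaperones that hold the receptors ready for hormone and the co-regulators they recruit, 23 of 24 had a probe and none was called (11 higher and 12 lower in value, median -0.05). Their differences ran from -0.29 to 0.21. The largest were those of the deacetylase Hdac6 (-0.29, adjusted p = 0.169), the co-chaperone Fkbp4, which favours entry of the receptor into the nucleus (-0.29, adjusted p = 0.321), and the deacetylase Hdac2 (0.21, adjusted p = 0.654), which without replicate 1 of 3M was 0.091.

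Both called genes were among the 17 genes of steroid synthesis, conversion and transport (median 0.04). Cyp21a1, the adrenal steroid 21-hydroxylase, read 9.11, 9.09, 9.12 and 9.23 in 3M and 9.80, 9.83, 9.77 and 9.99 in 29M. The 4 old arrays lay well above the 4 young ones, and the difference was 0.71 log2 units or 1.63-fold (SE 0.08, 95% interval 0.53 to 0.89, limma adjusted p = 0.00499). It was 0.77, 0.74 and 0.62 within slides 1, 2 and 3 and was called under all 19 alternative settings on this probe. The second Cyp21a1 probe was not well above background on any array and gives no second reading. Among protein-coding genes in RefSeq, the next to Cyp21a1 on one side is complement C4b, which rose by 2.32 log2 units or 4.98-fold (adjusted p = 0.00239). On the other side it is Stk19, at 0.10 (adjusted p = 0.53). Non-coding genes nearby were not looked at. The part of C4b transcripts in the Cyp21a1 signal was not tested.

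Tspo encodes a cholesterol-binding protein of the outer mitochondrial membrane that microglia also make. It read 10.98, 11.19, 10.62 and 11.26 in 3M and 11.55, 11.42, 11.72 and 11.57 in 29M. The groups did not overlap, and the difference was 0.55 log2 units or 1.46-fold (SE 0.14, limma adjusted p = 0.0972), just inside both thresholds. The call was lost in 12 of the 19 alternative settings, with 7 of the 8 that leave out 1 array among them (adjusted p from 0.0708 to 0.215). Of 8 microglial markers 1, C1qa, was called (0.86, adjusted p = 0.0136), and 7 were higher in value, with a median of 0.35. The mean level of the 7 with values on all arrays ran from 13.80 to 14.04 in 3M and from 14.15 to 14.33 in 29M, and all 8 were well above background on all 8 arrays. Replicate 3 of 3M, the lowest array in Tspo, was also the lowest in the mean level of 7 choroid plexus markers. That mean ran from 13.95 to 15.11 in 3M and from 14.51 to 14.86 in 29M. Without that array the Tspo difference was 0.42. This was picked out after the values were seen. The part of the microglial and choroid plexus markers in the Tspo difference was not tested. The carrier of corticosteroids in blood, Serpina6, was 0.47 higher in value (adjusted p = 0.357), and 0.22 without replicate 4 of 29M, which read 7.43 against 6.16 to 6.59 in the other old arrays. Its probe was dim and well above background on 7 of the 8 arrays. The second Serpina6 probe was not well above background on any array. Hsd11b2, which inactivates the steroid and opposes Hsd11b1, was detected over background on just 2 arrays of the 8.

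**Figure D4:**
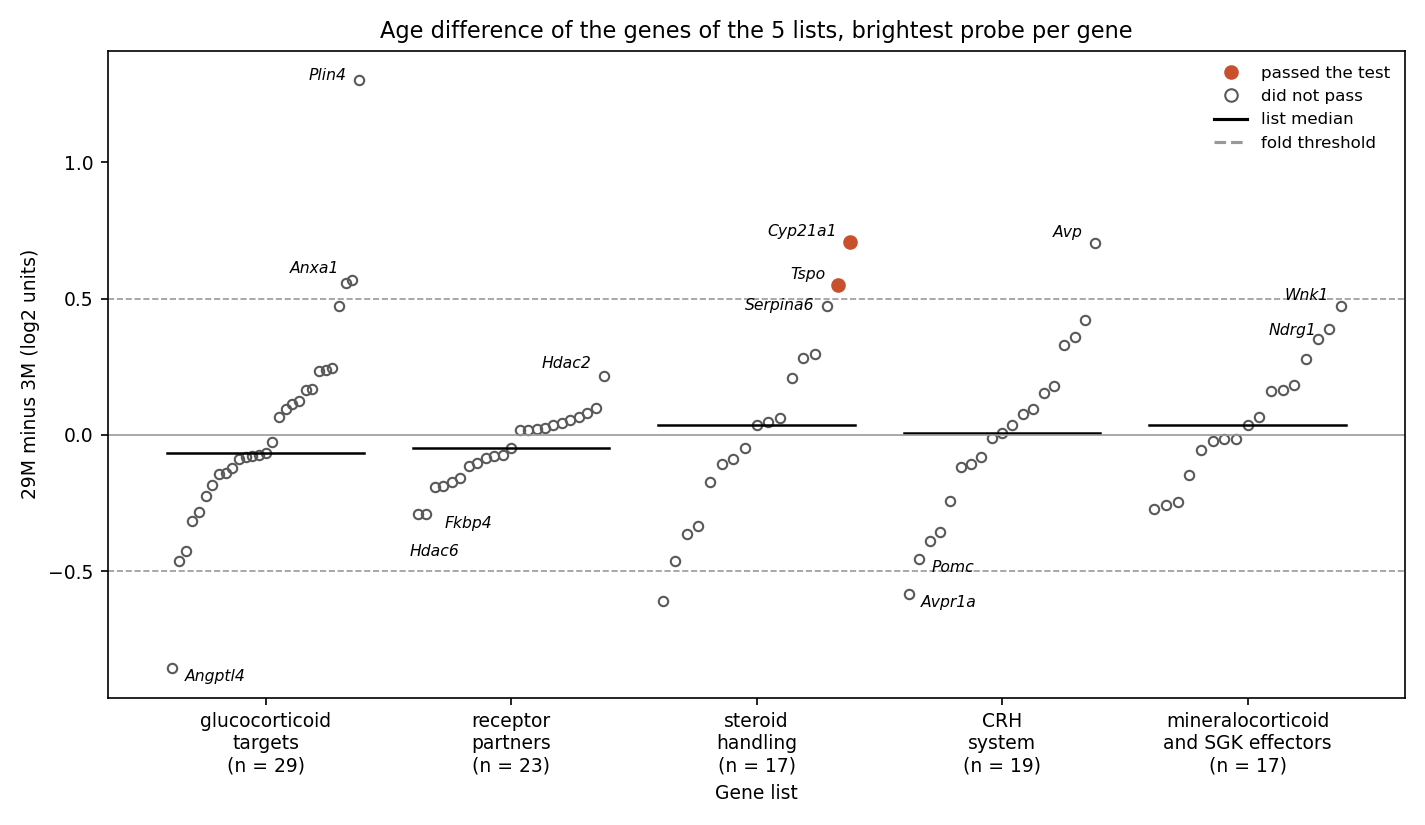
Difference between 29M and 3M in log2 units (vertical axis) of each gene of the 5 lists (horizontal axis), with genes in ascending order within a list, filled points for the 2 genes that passed the test (Cyp21a1 and Tspo), solid lines for list medians and dashed lines for the fold threshold. List medians lie between -0.07 and 0.04.

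None of the 19 other genes of the CRH system, its related peptides and receptors and the pituitary arm was called (10 higher and 9 lower in value, median 0.01). The peptide hormone vasopressin (Avp), which acts with CRH on the pituitary, read 7.56, 7.38, 7.39 and 7.83 in 3M and 8.17, 7.93, 8.77 and 8.10 in 29M. Its groups did not overlap, and the difference of 0.70 log2 units (SE 0.18) met the fold threshold and missed the other narrowly, with an adjusted p of 0.1 after rounding, while 5 of the 19 alternative settings called it. Pomc, the precursor of the pituitary hormone, was -0.45 (SE 0.14, adjusted p = 0.144), and the vasopressin receptor Avpr1a was -0.58 (SE 0.29, adjusted p = 0.34), and -0.30 without replicate 4 of 3M, which read 8.05 against 6.55 to 7.25 in the other young arrays. Crhbp, the binding protein that keeps CRH from its receptors, differed by 0.42 (SE 0.08, adjusted p = 0.0422), below the fold threshold, and is named for that after its values were seen. Another with an adjusted p under 0.1, the corticotropin receptor Mc2r, was not well above background on any array.

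The effectors of the mineralocorticoid receptor and of SGK kinases held 17 genes, and none was called (9 higher and 8 lower in value, median 0.04). The kinase Wnk1 (0.47, SE 0.11, adjusted p = 0.0656) and Ndrg1, whose protein SGK1 phosphorylates (0.39, SE 0.08, adjusted p = 0.0571), had adjusted p-values under 0.1 below the fold threshold, and the groups did not overlap in either. Without replicate 1 of 3M Wnk1 was called (0.55, adjusted p = 0.0197). The second Wnk1 probe gave 0.087.

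Among the other marker lists, 1 astrocyte marker was called, Gfap (0.71, adjusted p = 0.0235), of 8 with a median of 0.01. No marker of neurons, interneurons, oligodendrocytes, endothelium, choroid plexus, meninges or neighbouring brain regions was called, with list medians from -0.03 to 0.18. The list of neighbouring brain regions also held Prox1 and Wfs1, the markers of the dentate gyrus and the CA1 field.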

How the data were processed

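For each of the 8 samples the authors deposited the scanner output of 1 array, which holds linear spot intensities with no normalization across arrays. The file headers name Agilent Feature Extraction 10.7.3.1 as its source, a version other than the one the methods name. The methods were followed for the normalization, the model and the thresholds. Control spots and outlier spots (127 to 190 per array) were left out, and median spot intensities were normalized with a variance stabilising model fitted in R 4.3.3 (least trimmed squares, quantile 0.9, 7 iterations), which yields generalized log2 levels and understates the change of dim probes. The planned mean intensity was not in the files used here. Repeated spots were averaged. Age was the only term of a linear model run on every probe that had 3 or more usable arrays in both groups, in limma 3.58.1 with eBayes, and p-values were adjusted by Benjamini-Hochberg over 39408 probes. The script was tested on simulated data.

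Accessions in the files were matched to RefSeq (GRCm38.p6), which named 26055 of 39429 probes (66.1%). The arrays were designed on another build, so gene coordinates are not given, and those of promoter windows are RefSeq's own. The deposited table of the whole series holds background intensities (tolerance 0.001) and was not used. In 7 of its 8 columns these match the array deposited for a different sample, some of the other age, and samples were taken here as their own array files give them. Groups came from the sample titles. The members and lists were chosen with earlier results of these data known. The text names all probes of the 8 genes and, of each list, the called genes, filled up to 3 by the largest difference among probes well above background on all arrays of a group. It also names called markers. One gene that this rule picks is not reported here. No member was called, so no genes of like pattern were named. The alternatives comprised 3 other normalizations, outlier spots kept, dim probes left out, a block for slide or for replicate number, an intensity trend, array weights, an adjusted p under 0.05, each array left out and, for lists, the median over all probes of a gene. The number of arrays limits the precision.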

Additional observations from a re-analysis of the deposited data

Results flagged for a closer look

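Of 50 groups of 4 arrays scanned, over the probes named in the text, 2 had an array at one end whose gap to its nearest neighbour exceeded Dixon's 95% critical value of 0.829 of the group's range, where chance would give 2.5. Replicate 2 of 29M was high in Crhr1 probe A_55_P1997609, at 10.07 log2 units against 9.76 to 9.80 in the other 3 old arrays, a gap of 0.873 of the range. Replicate 4 of 29M was high in Plin4, at 12.73 against 10.73 to 10.91, a gap of 0.908 of the range. The same array was the highest old array in Fkbp5, Sgk1 and Tsc22d3, and the lowest old array in Angptl4 (10.09) and Anxa1 (10.41). The causes were not tested.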

How the results depend on the processing

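None of the 8 genes was called in any of the 19 alternative settings, and the differences of Tsc22d3 (-0.31 to -0.20), Crh (-0.53 to -0.18), the brighter Crhr1 probe (-0.30 to -0.11) and the dimmer Nr3c1 probe (0.14 to 0.50) kept their sign throughout. Probes with differences near 0 changed sign. On processed signals minus the 75th percentile the brighter Nr3c1 probe was -0.029, Fkbp5 -0.031 and Hsd11b1 -0.016, and when processed signals entered the variance stabilising model they were -0.017, -0.020 and -0.0049. With slide as a fixed block that Nr3c1 probe was -0.013 and Nr3c2 0.0063, and with array weights Crhr1 probe A_55_P1997609 was 0.090. Leaving out 1 array at a time gave ranges of -0.010 to 0.071 for the brighter Nr3c1 probe, -0.15 to 0.0081 for Nr3c2, -0.042 to 0.11 for Fkbp5, -0.019 to 0.24 for Sgk1, -0.010 to 0.065 for Hsd11b1 and -0.15 to 0.028 for Crhr1 probe A_55_P1997609. Over the same left-out arrays r ran from -0.12 to 0.75 for Fkbp5 and Sgk1. Of the listed genes 2 were called in the main fit. The count was 1 on processed signals minus the 75th percentile, with slide as a fixed block, at an adjusted p under 0.05 and with the median over all probes of a gene. It was 3 with dim probes left out, with slide as a random block and with an intensity trend, and 6 with array weights. With 1 array left out it was 1 to 4, the highest without replicate 1 of 3M and the lowest without replicates 2 or 3 of 3M or 1 or 2 of 29M. Cyp21a1 was called in every setting on its brightest probe, but with the median over its 2 probes it was not, since the second probe is at background on all 8 arrays, and Tspo was then the 1 call. On the whole array 810 probes were called, 1504 with array weights, 411 with the replicate number as a block, 487 at an adjusted p under 0.05, and 399 to 1465 with 1 array left out. Replicate numbers are shared between the groups but did not pair the arrays (r of same-numbered deviations -0.334, 0.30, -0.307 and 0.113). With the replicate block 0 of the 10 probes and 1 of the listed genes were called. The cause of these shifts was not tested.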
